A study of Mus musculus with 9 samples.

Results

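The 10 genes described here, Trem2, Tyrobp, Gpnmb, Spp1, Lpl, Fabp4, Fabp5, Cd9, Cd63 and Plin2, belong to the expression programme of lipid-associated macrophages. They were chosen by gene name in the deposited gene table, and all 10 were found, among 28998 genes. Each of the 10 was also among the 11798 genes tested, those with a mean of at least 1 FPKM over the 9 libraries. FPKM are fragments scaled to transcript length and library depth, so levels can be compared between genes.

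The cells were BMDMs, macrophages grown from bone marrow monocytes of wild-type (WT) C57 mice with GM-CSF, a growth factor of myeloid cells, for 7 days. There were 3 libraries of cells treated with WGFT17 for 36 h, 3 of cells treated with JHU083 for 36 h and 3 of Control cells. JHU083 is known as a prodrug of the glutamine antagonist DON, and WGFT17 is a code name whose structure and target were not used here. Doses, the treatment and culture time of Control cells, and the sex, age and number of mice are not given in the sources used here, so drug and any difference in culture time cannot be told apart. Nothing in the labels says that replicates came from separate cultures or mice, and p-values then measure only the spread between these libraries.

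Macrophages that take up lipid in obese fat, in atherosclerotic plaques, in damaged liver or around dying neurons are known to share a set of genes. At its centre is TREM2, a surface receptor for lipids and lipoproteins, which has no signalling tail of its own and passes its signal through the adaptor TYROBP (DAP12) to the kinase SYK. The programme also holds genes for taking up and storing fat, for lysosomal and vesicle proteins, and for the secreted protein osteopontin (Spp1). In mice lacking Trem2, lipid-associated macrophages of fat tissue fail to reach this state, and Gpnmb is widely used as its marker.

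Library depth ran from 56624220 to 69112134 estimated counts, and each library had 21556 to 22424 genes above 0. All 9 macrophage markers (Adgre1, Csf1r, Cd68, Itgam, Mertk, Fcgr1, Lyz2, Cd14 and Mrc1) were tested, and their FPKM summed to 10834 to 12086 in WGFT17, 10433 to 11624 in JHU083 and 9672 to 10504 in Control libraries. Most of the sum is Lyz2, and without it the sums were 1926 to 2039 FPKM in WGFT17, 1880 to 2046 in JHU083 and 1927 to 1969.8 in Control libraries. The 9 markers did not move together in WGFT17 against Control: Mertk and Fcgr1 were called higher and Csf1r, Itgam and Mrc1 lower by edgeR, with Mrc1 at 60.7 FPKM on average in WGFT17, against 115 FPKM in Control, and Itgam at 99.1 FPKM, against 134 FPKM. In photoreceptor markers, JHU083 replicate 3 stood apart from JHU083 replicates 1 and 2. Its 14 photoreceptor markers summed to 11.1 FPKM, against 3.16 and 3.09 FPKM in JHU083 replicates 1 and 2, 1.83 to 2.30 FPKM in WGFT17 and 9.96 to 11.6 FPKM in Control libraries. The 10 heart muscle markers summed to 105 FPKM in JHU083 replicate 3, 75.7 and 0.78 FPKM in JHU083 replicates 1 and 2, 0.10 to 0.14 FPKM in WGFT17 and 89.5 to 96.5 FPKM in Control libraries. In these markers JHU083 replicate 2 stood apart, so leaving out JHU083 replicate 3 keeps 2 libraries that differ in heart transcripts. JHU083 values rest on all 3 libraries unless stated. Values against Control without JHU083 replicate 3 are given for each of the 10 genes and for other genes named with a JHU083 change, and the part of these transcripts in the results was not tested. No comparison within the libraries that carry photoreceptor transcripts can be had for WGFT17 against Control, since each of these groups lies wholly on its own side.

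In WGFT17 cells, the largest changes among the 10 genes were those of Plin2, which encodes the coat protein of lipid droplets, and of Gpnmb, a membrane glycoprotein of lysosomes and the cell surface. Both stood more than 2-fold above Control. Lpl (lipoprotein lipase), Fabp5 (a fatty acid binding protein), Cd63 (a tetraspanin of lysosomes and exosomes) and Spp1 rose less, whereas Cd9, a tetraspanin of the cell surface, and Tyrobp fell. Trem2 itself and Fabp4 did not pass the test. By edgeR's quasi-likelihood test with Benjamini-Hochberg adjustment over all tested genes, 6 of the 10 genes were higher and 2 lower in WGFT17 than in Control, at an adjusted p under 0.05. Of all 11798 tested genes, 58.0% passed the same threshold, 3300 (28.0%) higher and 3537 (30.0%) lower, and with log2 FPKM values in limma the split was 4490 higher and 2879 lower. The median log2 change of the 10 genes was 0.35, from -0.43 to 1.19, and that of all tested genes was 0.0044. A log2 change of at least 1 that was also called was found for Gpnmb and Plin2 and for 2.14% of all tested genes. The FPKM ranges of the 2 groups did not overlap for 8 of the 10 genes, 7 higher and 1 lower, against 73.2% of all tested genes, 45.0% higher and 28.2% lower. In these bulk libraries, fewer cells of a type and less RNA per cell cannot be told apart.

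**Figure D1:**
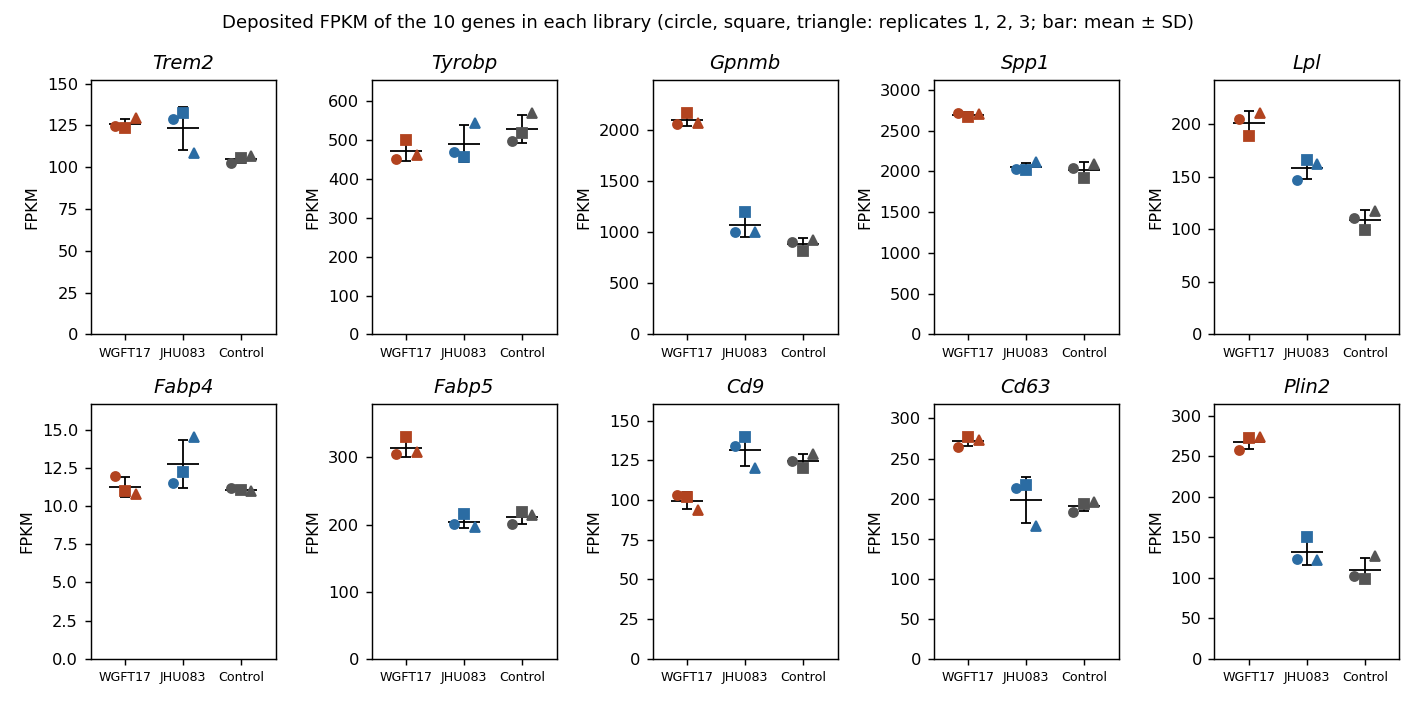
Deposited FPKM (y axis, linear, starting at 0) of each of the 10 genes in the WGFT17, JHU083 and Control libraries. Points are libraries, with circle, square and triangle for replicates 1, 2 and 3, and bars are the mean ± SD of 3 libraries. The 3 WGFT17 points for Gpnmb lie at 2061 to 2172 FPKM and those for Plin2 at 258 to 273 FPKM, above all JHU083 and Control points.

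Trem2 lies at chr17:48346401-48354147 on the plus strand (coordinates of the deposited table, which equal GRCm38). It had 124.5, 123 and 129 FPKM in the WGFT17 libraries, 129, 132.5 and 109 FPKM in the JHU083 libraries and 103, 105 and 107 FPKM in the Control libraries. All WGFT17 and JHU083 libraries were above all Control libraries, by a small margin for JHU083 replicate 3. On the count scale the log2 change was 0.15 ± 0.07 (SE) in WGFT17 against Control (95% interval 0.0046 to 0.30) and did not pass (adjusted p = 0.0724, edgeR). With JHU083 replicate 3 left out, the same change of 0.15 passed (adjusted p = 0.00316, edgeR), and on log2(FPKM + 1) values in limma it was 0.26 (adjusted p = 0.0102). The log2 FPKM scale moves the median of all tested genes up by 0.0951 in WGFT17 and 0.0789 in JHU083 against Control with a pseudocount of 1, and by 0.112 and 0.0930 with 0.1, so a value on it includes that shift. For JHU083 against Control the count-scale change of Trem2 was 0.14 ± 0.07 (SE; adjusted p = 0.154, edgeR). Leaving out 1 JHU083 library moved that value both ways: without JHU083 replicate 3 it was 0.22 and passed (adjusted p = 0.00266, edgeR), and without JHU083 replicate 2 it was 0.08 (adjusted p = 0.429, edgeR). With JHU083 replicate 3 as the only JHU083 library it was -0.04 (adjusted p = 0.642, edgeR). Between WGFT17 and JHU083 the log2 difference was 0.01, with a 95% interval of -0.13 to 0.16 (adjusted p = 0.887, edgeR), and -0.06 without JHU083 replicate 3 (adjusted p = 0.216, edgeR).

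Tyrobp, the adaptor of TREM2 and of other activating receptors, lies at chr7:30413760-30417582 on the plus strand in the deposited table. Its FPKM were 452, 499.9 and 461 in the WGFT17 libraries, 469.9, 456 and 545 in the JHU083 libraries and 498, 518 and 569.7 in the Control libraries. WGFT17 replicate 2 and JHU083 replicate 3 reach into the Control range. The log2 change in WGFT17 against Control was -0.28 ± 0.08 (SE; adjusted p = 0.0123, edgeR). It no longer passed without WGFT17 replicate 1 (-0.25, adjusted p = 0.0502, edgeR), without Control replicate 3 (-0.21, adjusted p = 0.0578, edgeR) or on log2(FPKM + 1) values (-0.16, adjusted p = 0.103, limma). In JHU083 against Control it was -0.20 ± 0.08 (SE; adjusted p = 0.0909, edgeR), and without JHU083 replicate 3 it was -0.29 and passed (adjusted p = 0.00774, edgeR). Without Control replicate 3 it was -0.14 (adjusted p = 0.297, edgeR). The receptor and its adaptor thus stood in different proportions in WGFT17 and Control libraries, though the ratio itself was not tested. Trem2 FPKM were 24.7% to 28.1% of Tyrobp FPKM in WGFT17 libraries and 18.7% to 20.6% in Control libraries. In JHU083 the share was 27.4% and 29.0% in replicates 1 and 2 and 20.0% in replicate 3.

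Gpnmb (chr6:49036546-49070929, plus strand) was the gene of the set with the widest gap in level. It had 2061, 2172 and 2075 FPKM in the WGFT17 libraries, 1001, 1199.8 and 1007 FPKM in the JHU083 libraries and 905, 815 and 928 FPKM in the Control libraries. By mean FPKM it ranked 10 among the 11798 tested genes in WGFT17, 28 in JHU083 and 32 in Control. Every WGFT17 library was above every other library, and every JHU083 library above every Control library. The log2 change was 1.14 ± 0.08 (SE) in WGFT17 against Control, 2.21-fold (adjusted p = 4.32e-07, edgeR), and 0.96 ± 0.08 (SE) in WGFT17 against JHU083 (adjusted p = 2.25e-06, edgeR). For JHU083 against Control it was 0.18 ± 0.08 (SE), with a 95% interval of 0.0050 to 0.36, and did not pass (adjusted p = 0.122, edgeR). It passed without JHU083 replicate 3 (0.22, adjusted p = 0.0486, edgeR) and on log2(FPKM + 1) values (0.27, adjusted p = 0.0349, limma). It was smaller without JHU083 replicate 2 (0.09, adjusted p = 0.367, edgeR) and without Control replicate 2 (0.12, adjusted p = 0.365, edgeR).

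Spp1 (chr5:104435118-104441050, plus strand) encodes osteopontin, a secreted ligand of integrins and CD44. It had 2718, 2665 and 2708 FPKM in the WGFT17 libraries, 2031, 2023 and 2118 FPKM in the JHU083 libraries and 2048, 1918 and 2095 FPKM in the Control libraries. The JHU083 and Control ranges overlap, and the WGFT17 libraries lie above both. Its log2 change was 0.31 ± 0.05 (SE) in WGFT17 against Control (adjusted p = 0.000518, edgeR) and 0.38 ± 0.05 (SE) in WGFT17 against JHU083 (adjusted p = 0.000151, edgeR). For JHU083 against Control it was -0.07, with a 95% interval of -0.19 to 0.05 (adjusted p = 0.376, edgeR), and turned to 0.03 on log2(FPKM + 1) values. Without JHU083 replicate 3 it was -0.10 (adjusted p = 0.103, edgeR), and over all libraries left out in turn it ranged from -0.11 to -0.04. The annotation places a gene of the same strand, Gm42793, over an exon of Spp1, so the split of fragments between these genes is uncertain.

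Lpl (chr8:68880491-68906934, plus strand in the deposited table) encodes the enzyme that releases fatty acids from lipoprotein triglycerides. It had 206, 189 and 211 FPKM in the WGFT17 libraries, 147, 166 and 162 FPKM in the JHU083 libraries and 111, 99.4 and 117 FPKM in the Control libraries. The 3 groups did not overlap and stood in the order WGFT17, JHU083, Control. The log2 change was 0.78 ± 0.08 (SE) in WGFT17 against Control, 1.71-fold (adjusted p = 6.72e-06, edgeR), and 0.44 ± 0.08 (SE) in JHU083 against Control, 1.36-fold (adjusted p = 0.00319, edgeR). WGFT17 exceeded JHU083 by 0.34 ± 0.08 (SE) on the log2 scale (adjusted p = 0.00413, edgeR). Without JHU083 replicate 3 the JHU083 value was 0.42 (adjusted p = 0.00269, edgeR), and with it as the only JHU083 library 0.48 (adjusted p = 0.00422, edgeR).

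The genes of the fatty acid binding proteins Fabp4 and Fabp5, which carry fatty acids in the cytoplasm, lie near each other on chromosome 3 (Fabp4 at chr3:10204088-10208576, minus strand; Fabp5 at chr3:10012548-10016607, plus strand). In WGFT17 against Control, Fabp5 passed the test and Fabp4 did not. Fabp5 had 305, 330.0 and 308 FPKM in the WGFT17 libraries, 201, 216 and 197 FPKM in the JHU083 libraries and 200.1, 219 and 214 FPKM in the Control libraries. It rose in WGFT17 by 0.47 ± 0.06 (SE) on the log2 scale against Control (adjusted p = 4.25e-05, edgeR) and by 0.61 ± 0.06 (SE) against JHU083 (adjusted p = 6.60e-06, edgeR). In JHU083 against Control its log2 change was -0.14 ± 0.06 (SE; adjusted p = 0.104, edgeR), and -0.12 without JHU083 replicate 3 (adjusted p = 0.120, edgeR). Fabp4, the isoform of fat cells, was far lower in FPKM, at 12.0, 11.0 and 10.8 in the WGFT17, 11.5, 12.3 and 14.5 in the JHU083 and 11.2, 11.0 and 11.0 in the Control libraries. The highest Fabp4 value was that of JHU083 replicate 3. The log2 change of Fabp4 was -0.09 ± 0.08 (SE) in WGFT17 against Control (95% interval -0.27 to 0.10, adjusted p = 0.396, edgeR), and 0.02 on log2(FPKM + 1) values. For JHU083 against Control, Fabp4 changed by 0.11 ± 0.08 (SE; adjusted p = 0.368, edgeR), by -0.0004 without JHU083 replicate 3 (adjusted p = 0.996, edgeR), and by 0.30 with that library alone (adjusted p = 0.0135, edgeR). Fabp5 FPKM were 25.5 to 30.0 times those of Fabp4 in WGFT17 libraries, 13.6 to 17.6 times in JHU083 libraries and 17.9 to 19.9 times in Control libraries.

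Plin2 (chr4:86648386-86670060, minus strand) had 258, 272 and 273 FPKM in the WGFT17 libraries, 123, 150.2 and 121 FPKM in the JHU083 libraries and 102, 98.6 and 127 FPKM in the Control libraries. All WGFT17 libraries lie above the other 6, and JHU083 and Control overlap. The log2 change was 1.19 ± 0.11 (SE) in WGFT17 against Control, 2.27-fold (adjusted p = 3.10e-06, edgeR), and 1.01 ± 0.11 (SE) in WGFT17 against JHU083 (adjusted p = 1.41e-05, edgeR). For JHU083 against Control it was 0.17, with a 95% interval of -0.06 to 0.41 (adjusted p = 0.251, edgeR). That value moved with single libraries, to 0.31 without Control replicate 3 (adjusted p = 0.0524, edgeR), 0.10 without Control replicate 2 (adjusted p = 0.580, edgeR) and 0.07 without JHU083 replicate 2 (adjusted p = 0.677, edgeR), and was 0.22 without JHU083 replicate 3 (adjusted p = 0.147, edgeR). Plin2 was the most variable of the 10 genes among Control libraries, with an SD of 14.3% of the mean.

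The tetraspanins Cd9 and Cd63, membrane proteins that organise other proteins in the cell surface and in exosomes, moved in opposite directions in WGFT17. Cd9 (chr6:125460266-125494791, minus strand) had 103, 102 and 93.6 FPKM in the WGFT17 libraries, 134, 139.5 and 120.5 FPKM in the JHU083 libraries and 125, 120.4 and 129 FPKM in the Control libraries. The WGFT17 libraries were below all others, with a log2 change of -0.43 ± 0.06 (SE) against Control (adjusted p = 0.00017, edgeR) and -0.41 ± 0.06 (SE) against JHU083 (adjusted p = 0.000297, edgeR). For JHU083 against Control it was -0.02 (95% interval -0.16 to 0.12, adjusted p = 0.865, edgeR), and 0.03 without JHU083 replicate 3 (adjusted p = 0.656, edgeR). Cd63 (chr10:128900989-128912822, plus strand) had 264, 276.5 and 274 FPKM in the WGFT17 libraries, 213, 217 and 165 FPKM in the JHU083 libraries and 184, 194 and 195 FPKM in the Control libraries. The WGFT17 libraries were above all others, with a log2 change of 0.40 ± 0.09 (SE) against Control (adjusted p = 0.00238, edgeR) and 0.44 ± 0.09 (SE) against JHU083 (adjusted p = 0.00174, edgeR). In JHU083, replicates 1 and 2 lie above the Control range of Cd63 and replicate 3 below it. The log2 change in JHU083 against Control was -0.04 ± 0.09 (SE; adjusted p = 0.780, edgeR) with all libraries, 0.07 without JHU083 replicate 3 (adjusted p = 0.213, edgeR) and -0.30 with that library alone (adjusted p = 0.00506, edgeR). The ratio of Cd63 FPKM to Cd9 FPKM was 2.56 to 2.92 in WGFT17, 1.37 to 1.59 in JHU083 and 1.47 to 1.61 in Control libraries. A processed copy of Cd63, Cd63-ps, may share fragments with it and was lower in WGFT17, with 28.0, 28.0 and 26.2 FPKM, against 40.7, 39.1 and 45.2 FPKM in Control libraries (log2 change -0.71, adjusted p = 0.00177, edgeR). With the counts of Cd63 and Cd63-ps added together, an alternative chosen after seeing the data, the log2 change in WGFT17 against Control was 0.36 (adjusted p = 0.0029, edgeR). On the opposite strand, Gm26728 overlaps an exon of Cd9 and Gm28809 overlaps Cd9 outside its exons. The libraries were stranded, but the strand setting of the counting is not given in the sources used here.

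**Figure D2:**
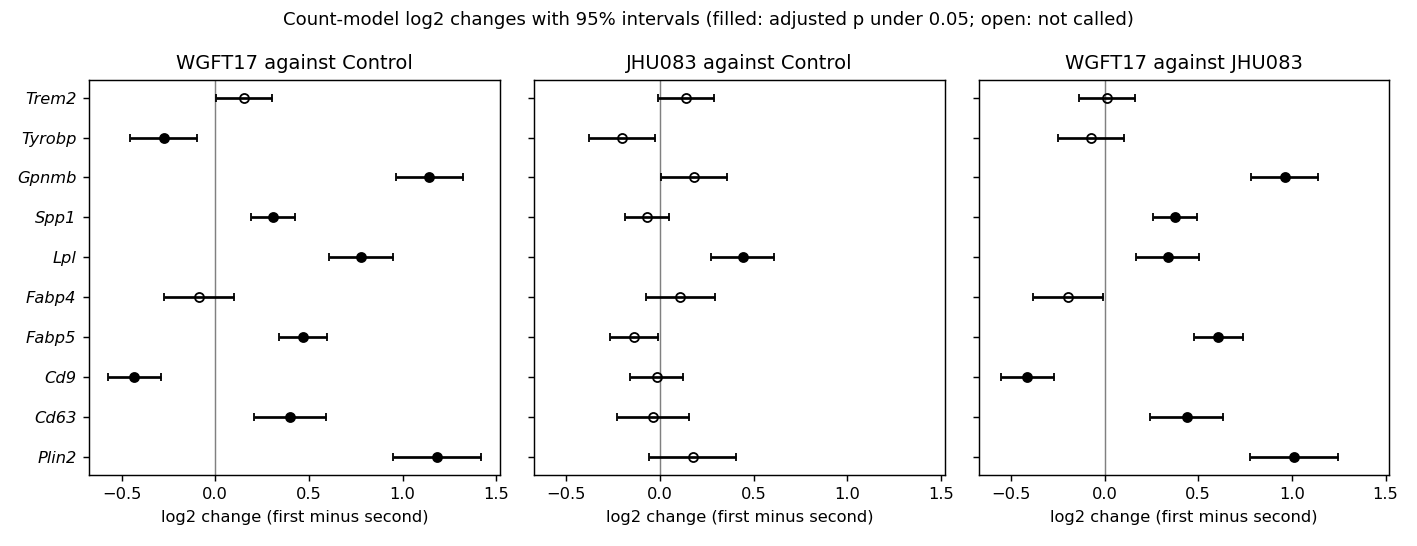
Log2 changes of the 10 genes on the count scale (x axis) with their 95% intervals, for WGFT17 against Control, JHU083 against Control and WGFT17 against JHU083. Filled points passed an adjusted p of 0.05 in edgeR's quasi-likelihood test, open points did not. Plin2 and Gpnmb lie at 1.19 and 1.14 in WGFT17 against Control, and in JHU083 against Control the filled point is that of Lpl, at 0.44.

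In JHU083 cells, Lpl was the gene of the set that passed against Control, and it rose. By edgeR's quasi-likelihood test with Benjamini-Hochberg adjustment, 1 of the 10 genes was higher and 0 lower. Of all tested genes, 24.0% passed, 1351 (11.5%) higher and 1480 (12.5%) lower. That share was 13.0% (1534 genes) without Control replicate 2 and 13.3% (1568 genes) without Control replicate 3. The split was 2524 higher and 1003 lower with log2(FPKM + 1) values in limma, and 1738 higher and 1222 lower with library totals in place of TMM factors. At an unadjusted p under 0.05 the edgeR test gave 2 of the 10 genes higher (Gpnmb and Lpl) and 2 lower (Tyrobp and Fabp5), DESeq2 called these 2 lower after adjustment, and limma on log2(FPKM + 1) values called 0 lower. The median log2 change of the 10 genes was 0.05, from -0.20 to 0.44, and that of all tested genes 0.0037. FPKM ranges did not overlap for Trem2, Gpnmb, Lpl and Fabp4, all 4 higher in JHU083, against 43.7% of all tested genes, 31.3% higher and 12.4% lower. Without JHU083 replicate 3, Trem2, Gpnmb and Lpl were called higher and Tyrobp lower, and 31.6% of all tested genes passed, 1855 higher and 1876 lower. With JHU083 replicate 3 as the only JHU083 library, Lpl and Fabp4 were called higher and Cd63 lower, 26.4% of all tested genes passed, and the lone library was assumed to vary like the other groups. JHU083 replicate 3 was the JHU083 library nearest to the Control mean for 4 of the 10 genes (40.0%) and for 4574 of the 11751 tested genes above 0 in all libraries (38.9%).

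**Figure D3:**
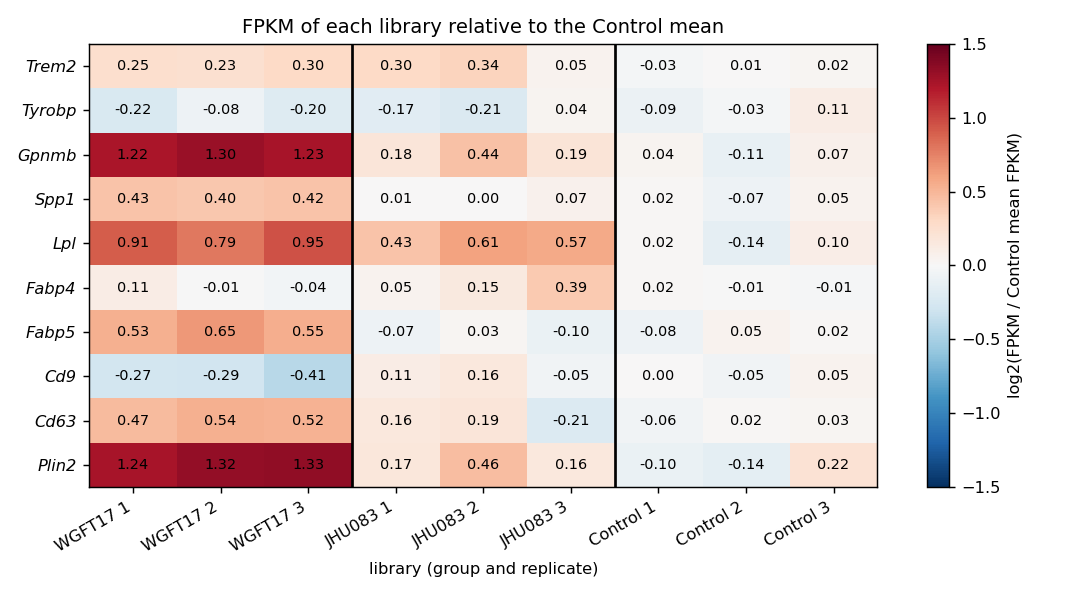
Log2 of the FPKM of each library over the Control mean FPKM, by gene (rows) and library (columns, WGFT17, JHU083 and Control replicates 1 to 3), with the value in each cell and colour from -1.5 to 1.5. Gpnmb and Plin2 stand at 1.22 to 1.33 in the WGFT17 libraries. JHU083 replicate 3 stands at 0.05 for Trem2, against 0.30 and 0.34 in JHU083 replicates 1 and 2.

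Set directly against JHU083, WGFT17 cells had more Plin2, Gpnmb, Fabp5, Cd63, Spp1 and Lpl RNA and less Cd9 RNA. By edgeR's quasi-likelihood test with Benjamini-Hochberg adjustment, 6 of the 10 genes were higher, 1 was lower and 3 (Trem2, Tyrobp and Fabp4) did not pass. Without JHU083 replicate 3 the counts were again 6, 1 and 3, with log2 differences of 0.96 for Plin2, 0.93 for Gpnmb, 0.59 for Fabp5, 0.40 for Spp1, 0.36 for Lpl, 0.33 for Cd63 and -0.47 for Cd9. Among all tested genes 44.7% passed, 20.4% higher and 24.4% lower. The median log2 difference of the 10 genes was 0.36 and that of all tested genes 0.0062. A log2 difference of at least 1 that was also called higher was found for Plin2 and for 1.4% of all tested genes. FPKM ranges did not overlap for the 7 genes that passed, against 53.4% of all tested genes, 27.4% higher and 25.9% lower. The drugs were given for the same 36 h, but the doses are not given in the sources used here, and the comparisons of WGFT17 and of JHU083 with Control share the Control libraries.

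Per transcript length, Spp1 and Gpnmb were the most abundant of the 10 genes in all 3 groups and Fabp4 the least. Spp1 ranked 9 in WGFT17, 10 in JHU083 and 11 in Control among all tested genes by mean FPKM, and Tyrobp ranked 61, 59 and 54. Plin2 ranked 105 in WGFT17, 253 in JHU083 and 334 in Control, and Lpl 160, 208 and 332. Trem2 ranked 288, 277 and 355 in these groups, Cd9 ranked 379, 255 and 285, and Fabp4 3802, 3444 and 3747. The FPKM of Gpnmb were 16.0 to 17.6 times those of Trem2 in WGFT17, 7.77 to 9.26 times in JHU083 and 7.74 to 8.82 times in Control libraries. The SD between replicates ranged over the 10 genes from 1.05% to 5.66% of the mean FPKM in WGFT17, 2.55% to 14.6% in JHU083 and 1.11% to 14.3% in Control.

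**Figure D4:**
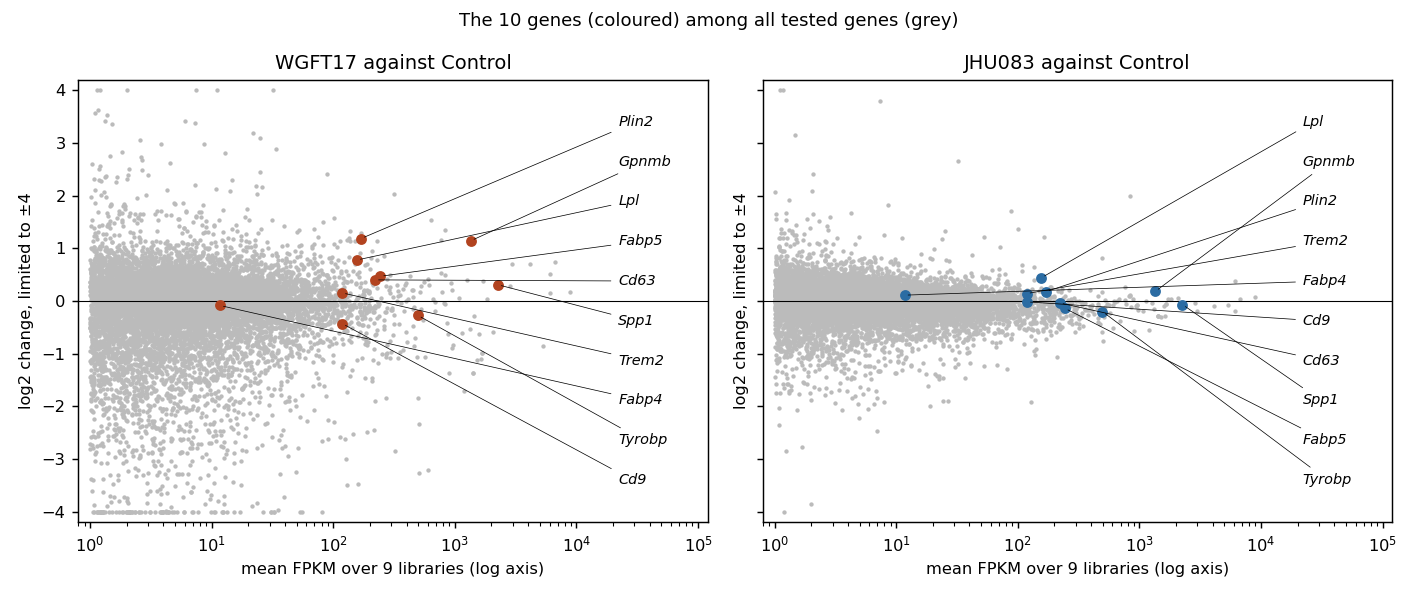
Log2 change on the count scale (y axis, limited to ±4) against mean FPKM over the 9 libraries (x axis, log scale) for all 11798 tested genes (grey) and the 10 genes (coloured, named), for WGFT17 against Control and JHU083 against Control. In WGFT17 against Control, Gpnmb and Plin2 lie above 1, and in JHU083 against Control the 10 genes lie between -0.20 and 0.44.

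The start regions of Gpnmb and Plin2, the genes that moved most, and of Trem2, which had the smallest log2 change of the 7 genes whose WGFT17 libraries all lay above Control, are set side by side here. RefSeq promoter sequences (GRCm38.p6) were at hand for 6 of the 10 genes, and none was found for Tyrobp, Lpl, Fabp4 and Fabp5. Each sequence is the 250 bases before the RefSeq start, 5′ to 3′ on the gene's strand, at chr6:49036268-49036517 (plus strand) for Gpnmb, chr4:86670060-86670309 (minus strand) for Plin2 and chr17:48346151-48346400 (plus strand) for Trem2. Capitals mark matches to 5 motifs searched on both strands: CACGTG (the E-box bound by bHLH-zip factors such as TFEB), CATGTG (an E-box variant), AGGTCA (the core site of nuclear receptors), TGACTCA (the AP-1 site) and TGATGCAA (the C/EBP-ATF element).
Gpnmb: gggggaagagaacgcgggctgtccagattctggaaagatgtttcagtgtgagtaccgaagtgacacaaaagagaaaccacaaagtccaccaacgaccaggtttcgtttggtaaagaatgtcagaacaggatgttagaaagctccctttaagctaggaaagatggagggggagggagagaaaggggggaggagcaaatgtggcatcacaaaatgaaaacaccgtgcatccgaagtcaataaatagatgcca
Plin2: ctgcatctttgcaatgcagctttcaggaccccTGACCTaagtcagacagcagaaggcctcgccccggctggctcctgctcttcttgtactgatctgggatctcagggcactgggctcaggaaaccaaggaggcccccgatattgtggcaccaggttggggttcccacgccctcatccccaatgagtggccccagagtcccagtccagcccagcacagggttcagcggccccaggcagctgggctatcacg
Trem2: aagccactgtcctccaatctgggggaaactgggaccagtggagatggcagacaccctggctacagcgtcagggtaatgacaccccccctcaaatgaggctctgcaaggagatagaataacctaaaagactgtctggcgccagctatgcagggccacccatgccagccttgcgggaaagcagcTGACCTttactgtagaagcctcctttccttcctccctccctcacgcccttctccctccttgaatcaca
The Plin2 and Trem2 windows each hold AGGTCA once, on the opposite strand and so written TGACCT, with its first letter at -218 for Plin2 and -68 for Trem2 from the start. The Gpnmb window holds none of the 5 motifs. Among the other windows of the 10 genes, that of Cd9 holds CATGTG at -38 on the opposite strand. Of 32851 windows of all genes, 14.0% hold AGGTCA, 12.3% CATGTG, 6.02% CACGTG, 4.46% TGACTCA and 0.791% TGATGCAA. A match is a description of letters in this window and does not show binding.

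Of 25 relay, brake and sheddase genes of the TREM2 signal, all tested, 9 (36.0%) were higher and 8 (32.0%) lower in WGFT17 than in Control, with a median log2 change of -0.07, near the 28.0% and 30.0% of all tested genes. In JHU083, 4 (16.0%) were higher and 1 (4.0%) lower than in Control, against 11.5% and 12.5% of all tested genes. Without JHU083 replicate 3 the counts were 9 and 1. For that fit, here and in the lists below, 1855 of all 11798 tested genes were higher and 1876 lower. Syk, the kinase recruited by TYROBP, rose to 44.5 ± 1.41 FPKM in WGFT17, against 32.4 ± 0.80 FPKM in Control (SD, n = 3 each; log2 change 0.35, adjusted p = 0.00182, edgeR). Adam10, a protease that sheds TREM2 from the cell surface, rose to 47.7 ± 0.11 FPKM in WGFT17 and 38.1 ± 2.63 FPKM in JHU083, against 29.1 ± 1.87 FPKM in Control (log2 changes 0.60 and 0.29, adjusted p = 9.61e-06 and 0.00786, edgeR). Adam17, the other sheddase, rose by 0.24 in WGFT17 and 0.28 in JHU083 on the log2 scale (adjusted p = 0.00382 and 0.00672, edgeR). Without JHU083 replicate 3 the JHU083 changes of Adam10 and Adam17 were 0.23 and 0.25 and still passed, and Syk passed in JHU083 as well (0.23, adjusted p = 0.00414, edgeR). Hcst (DAP10), which also pairs with TREM2, did not pass in WGFT17 (2.66 ± 0.38 FPKM, against 3.74 ± 0.25 FPKM in Control, adjusted p = 0.139, edgeR). Of 14 other TREM family and TYROBP-pairing receptors, 8 were tested. In WGFT17, 1 of the 8 (12.5%) was higher, Cd300lb, and 2 were lower, Pilrb1 and Pilrb2. Among all tested genes these shares were 28.0% and 30.0%. In JHU083, 1 (12.5%) was higher, again Cd300lb, and 0 were lower, against 11.5% and 12.5% of all tested genes. Trem1 was under the FPKM minimum, at 0.31 to 0.63 FPKM in all libraries.

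Of 28 other genes of the lipid-associated programme, 12 (42.9%) were higher and 7 lower in WGFT17 than in Control, with a median log2 change of 0.09, against 28.0% and 30.0% of all tested genes. In JHU083, 2 (7.14%) were higher and 4 (14.3%) lower, against 11.5% and 12.5% of all tested genes, and 5 and 4 without JHU083 replicate 3. Lipa, the lysosomal lipase that frees stored cholesterol and fatty acids, rose to 236 ± 0.29 FPKM in WGFT17 and 176 ± 12.0 FPKM in JHU083, against 137 ± 7.80 FPKM in Control (adjusted p = 4.70e-06 and 0.0134, edgeR). Lilrb4a, an inhibitory receptor gene, rose by 0.64 in WGFT17 and 0.57 in JHU083 on the log2 scale (adjusted p = 0.000192 and 0.00291, edgeR). The fatty acid receptor Cd36 had 245 ± 8.52 FPKM in WGFT17, 180.0 ± 18.8 FPKM in JHU083 and 139.6 ± 15.3 FPKM in Control, and rose in WGFT17 by 0.70 (adjusted p = 7.42e-05, edgeR). In the other direction, the integrin gene Itgax (CD11c) fell to 8.01 ± 0.63 FPKM in WGFT17, against 37.7 ± 5.55 FPKM in Control (log2 change -2.34, adjusted p = 2.93e-08, edgeR). Lgals1 fell by 1.37 and Acp5 fell by 2.16 on the log2 scale in WGFT17 (adjusted p = 5.19e-08 and 2.54e-07, edgeR), and Lgals1 fell by 0.57 in JHU083 (adjusted p = 0.00101, edgeR). Lipa, Lilrb4a and Lgals1 still passed in JHU083 without replicate 3, at 0.27, 0.49 and -0.63 on the log2 scale. Apoe, an apolipoprotein gene of lipid-laden macrophages, had 6089 ± 404 FPKM in WGFT17, 7070 ± 1732 FPKM in JHU083 and 5112 ± 301 FPKM in Control. Within JHU083, replicate 3 was lowest at 5069.6 FPKM. Apoe did not pass in WGFT17 (adjusted p = 0.414, edgeR) or JHU083 (adjusted p = 0.0855, edgeR). Apoe passed in JHU083 without replicate 3 (log2 change 0.56, adjusted p = 0.000125, edgeR).

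Of 24 listed genes of lipid droplets, the stores that PLIN2 coats, 18 were tested, and 9 (50.0%) were higher and 3 (16.7%) lower in WGFT17 than in Control, with a median log2 change of 0.20, against 28.0% and 30.0% of all tested genes. In JHU083, 3 (16.7%) were higher and 4 (22.2%) lower than in Control, against 11.5% and 12.5% of all tested genes. The counts were 4 and 4 without JHU083 replicate 3. Soat1, which esterifies cholesterol for storage, had 59.6 ± 0.71 FPKM in WGFT17, against 33.2 ± 0.51 FPKM in Control (log2 change 0.74, adjusted p = 4.17e-07, edgeR). Nceh1, which hydrolyses the esters again, rose by 0.69 in WGFT17 and 0.34 in JHU083 on the log2 scale (adjusted p = 1.75e-07 and 0.00101, edgeR), and by 0.35 in JHU083 without JHU083 replicate 3. The acyl-CoA synthetase gene Acsl3 fell in WGFT17 by 1.26 on the log2 scale (adjusted p = 3.2e-07, edgeR). Plin3, a coat protein gene related to Plin2, did not pass (24.3 ± 0.40 FPKM in WGFT17, against 20.8 ± 0.49 FPKM in Control, adjusted p = 0.235, edgeR). In JHU083 its log2 change was 0.08 with all libraries (adjusted p = 0.523, edgeR) and 0.18 without JHU083 replicate 3, where it passed (adjusted p = 0.00949, edgeR).

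Around Lpl and the FABP genes, 13 of 16 genes of LPL handling and lipid uptake were tested, with 8 (61.5%) higher and 4 (30.8%) lower in WGFT17, a median log2 change of 0.29, against 28.0% and 30.0% of all tested genes. In JHU083, 1 (7.69%) was higher and 2 (15.4%) lower, against 11.5% and 12.5% of all tested genes. The counts were 2 and 2 without JHU083 replicate 3. The scavenger receptor gene Msr1 rose to 56.5 ± 4.40 FPKM in WGFT17 and 41.2 ± 3.01 FPKM in JHU083, against 27.7 ± 1.35 FPKM in Control (adjusted p = 1.40e-06 and 0.00212, edgeR). The JHU083 log2 change of Msr1 without JHU083 replicate 3 was 0.42 (adjusted p = 0.0016, edgeR). Of the other FABP genes 3 were tested: Fabp7 rose in WGFT17 to 6.56 ± 0.46 FPKM, against 1.85 FPKM in each Control library (adjusted p = 1.43e-05, edgeR), and Fabp3 and Fabp1 fell (adjusted p = 0.00116 and 0.0167, edgeR). In JHU083, Fabp1 was also lower (log2 change -1.67, adjusted p = 0.0296, edgeR) and Fabp7 higher (0.61, adjusted p = 0.0338, edgeR). Without JHU083 replicate 3, Fabp1 still passed (-2.32, adjusted p = 0.00401, edgeR) and Fabp7 did not (0.41, adjusted p = 0.0742, edgeR). Fabp3, a heart isoform, had 3.02, 3.37 and 3.68 FPKM in WGFT17, 9.94, 3.08 and 10.5 FPKM in JHU083 and 11.0, 10.8 and 10.7 FPKM in Control libraries, high in the same libraries as the heart muscle markers. Fabp1 had 5.76, 3.48 and 2.07 FPKM in WGFT17, 3.15, 1.26 and 5.92 FPKM in JHU083 and 11.1, 12.0 and 7.77 FPKM in Control libraries. The sum of the 10 liver markers was also highest in the Control libraries. The part of heart transcripts in the Fabp3 values and of liver transcripts in the Fabp1 values was not tested.

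Among genes of the nuclear receptors PPAR and LXR, which drive lipid genes of macrophages, 9 (60.0%) were higher and 2 (13.3%) lower in WGFT17 of 15 tested (median log2 change 0.29), against 28.0% and 30.0% of all tested genes. This list shares Cd36 with the lists of other lipid-associated genes and of lipid uptake, and Angptl4 with the latter. In JHU083, 3 (20.0%) were higher and 1 (6.67%) lower, against 11.5% and 12.5% of all tested genes. The counts were 6 and 1 without JHU083 replicate 3. Pparg itself had 7.54 ± 0.37 FPKM in WGFT17, 8.74 ± 0.62 FPKM in JHU083 and 7.56 ± 0.49 FPKM in Control and did not pass against Control (adjusted p = 0.251 and 0.341, edgeR). Nr1h3 (LXR alpha) rose by 0.35 in WGFT17 and 0.44 in JHU083 on the log2 scale (adjusted p = 0.0460 and 0.0361, edgeR), and so did the LXR target Mylip, by 0.61 and 0.65 (adjusted p = 4.72e-05 and 0.000723, edgeR). Both still passed in JHU083 without replicate 3, at 0.55 for Nr1h3 and 0.71 for Mylip. Pdk4, a target of PPAR factors, fell by 2.01 in WGFT17 and rose by 0.30 in JHU083 (adjusted p = 1.0e-08 and 0.0330, edgeR), the JHU083 change being 0.27 without JHU083 replicate 3 and no longer passing (adjusted p = 0.0517, edgeR). Of 22 genes of the MiT/TFE factors of lysosome biogenesis, to which Gpnmb is known to respond, and of their targets, 14 (63.6%) were higher and 3 (13.6%) lower in WGFT17 (median log2 change 0.32), against 28.0% and 30.0% of all tested genes. In JHU083, 5 (22.7%) were higher and 2 (9.09%) lower, against 11.5% and 12.5% of all tested genes. The counts were 6 and 2 without JHU083 replicate 3. Sqstm1 (p62) had 644 ± 27.6 FPKM in WGFT17, 157 ± 19.4 FPKM in JHU083 and 146 ± 5.05 FPKM in Control, a log2 change of 2.03 in WGFT17 (adjusted p = 4.58e-09, edgeR). Of the factor genes, Tfe3 rose in WGFT17 by 0.20 (adjusted p = 0.00551, edgeR), and Mitf at 0.01 and Tfeb at -0.18 did not pass there (adjusted p = 0.934 and 0.139, edgeR). Mitf rose in JHU083 by 0.26 (adjusted p = 0.0318, edgeR), and Tfe3 at -0.03 and Tfeb at 0.07 did not pass there (adjusted p = 0.735 and 0.647, edgeR). With JHU083 replicate 3 left out, Mitf at 0.25 and Tfeb at 0.19 passed (adjusted p = 0.0436 and 0.0475, edgeR) and Tfe3 did not.

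Of 9 tested genes for partners of SPP1 and GPNMB, 2 (22.2%) were higher and 3 (33.3%) lower in WGFT17, near the 28.0% and 30.0% of all tested genes. In JHU083, 0 were higher and 2 (22.2%) lower, Itga5 and Sdc4, against 11.5% and 12.5% of all tested genes. Without JHU083 replicate 3 the counts were 1 and 3. There Itga5 still passed (log2 change -0.55, adjusted p = 5.44e-05, edgeR) and Sdc4 did not (log2 change -0.15, adjusted p = 0.0503, edgeR). Itgb3, part of an osteopontin receptor, rose in WGFT17 by 1.07 on the log2 scale (adjusted p = 6.38e-06, edgeR), and Cd44, another osteopontin receptor, by 0.25 (adjusted p = 0.00329, edgeR). Sdc4, a syndecan, fell by 1.07 in WGFT17 (adjusted p = 1.98e-08, edgeR). Of 16 tested genes of other tetraspanins and their partners, 5 (31.3%) were higher and 6 (37.5%) lower in WGFT17, near the shares over all tested genes. In JHU083, 2 (12.5%) were higher and 2 (12.5%) lower, again near the 11.5% and 12.5% of all tested genes. The counts were 2 and 1 without JHU083 replicate 3. Cd37 rose in WGFT17 by 0.87 on the log2 scale (adjusted p = 4.01e-07, edgeR), and Cd81, a partner of CD9, fell by 1.07 (adjusted p = 5.54e-07, edgeR).

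**Figure D5:**
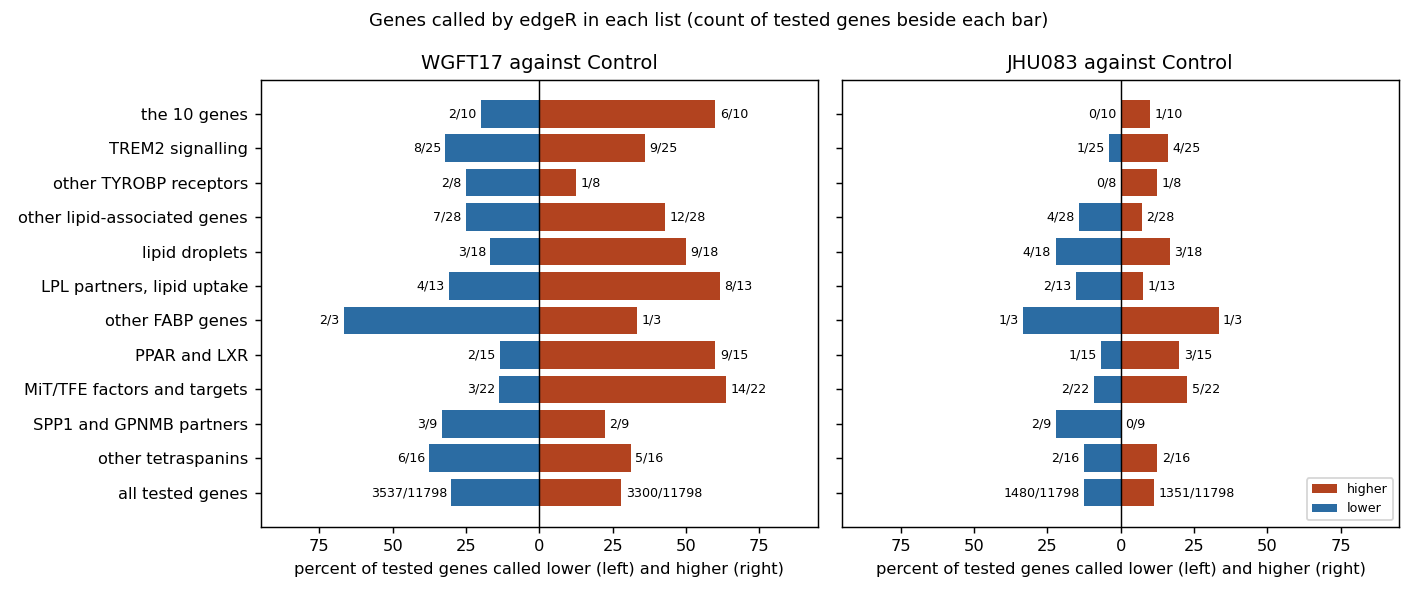
Percent of the tested genes of each list called higher (right) and lower (left) by edgeR in WGFT17 against Control and in JHU083 against Control, with the count over the number tested beside each bar. Among all tested genes, 3300 are higher and 3537 lower in WGFT17; in the list of MiT/TFE factors and targets, 14 of 22 are higher.

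The genes whose FPKM ran most like those of Gpnmb over the 9 libraries were Slc3a2, Plin2, Gtpbp2, Wfs1 and Flvcr1. Likeness was the root-mean-square difference between log2(FPKM + 1) profiles, each centred on its own mean, among 6470 tested genes with a mean of at least 5 FPKM. It was 0.071 for Slc3a2, an amino acid transporter subunit, 0.074 for Plin2 and 0.077 to 0.095 for the other 3. Slc3a2 had 208, 224 and 215 FPKM in WGFT17, 102, 114 and 94.1 FPKM in JHU083 and 89.9, 91.3 and 92.5 FPKM in Control libraries. The genes most like Trem2 were Smarcc2, Nudcd3, Dhx38, Numa1 and Kcnk6, with differences of 0.030 to 0.034. Smarcc2 had 34.5, 34.0 and 35.3 FPKM in WGFT17, 37.1, 37.7 and 31.4 FPKM in JHU083 and 29.0, 30.0 and 30.7 FPKM in Control libraries, lowest within JHU083 in replicate 3, as Trem2 was. No other gene of the 10 was among the 5 nearest to Trem2.

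Several of the 10 genes are also expressed by cells other than macrophages, and marker lists of such cells were read in the same libraries. Fat cells express Fabp4, Lpl and Plin2: of 9 fat cell markers, 7 (Adipoq, Lep, Cfd, Plin1, Retn, Cidec and Cidea) were under 0.5 FPKM in every library, and the sums were 3.49 to 3.62 FPKM in WGFT17, 3.52 to 4.17 in JHU083 and 4.15 to 4.85 in Control. Pigment cells express Gpnmb: the 3 of 5 melanocyte markers in the table, Pmel, Dct and Mlana, were each under 0.5 FPKM in every library. Osteoclasts and osteoblasts express Spp1, and osteoclasts Gpnmb. The 8 osteoclast markers summed to 144 to 151 FPKM in WGFT17, 196 to 225 in JHU083 and 188 to 238 in Control, and the 6 osteoblast markers to 5.24 to 6.54, 22.5 to 26.5 and 24.8 to 31.0 FPKM in these groups. Both sums were lower in WGFT17 than in every Control library. Of the 6 osteoclast markers tested, 5 (83.3%) were called lower in WGFT17, against 30.0% of all tested genes. The count in JHU083 was 2 (33.3%), against 12.5% of all tested genes. Atp6v0d2 was called lower in neither group. It makes a large part of the sum, at 89.0 to 95.5 FPKM in WGFT17 and 77.6 to 102 FPKM in Control libraries. The part of such cells in the Spp1 and Gpnmb values was not tested. The 8 stromal fibroblast markers summed to 226 to 237 FPKM in WGFT17, 869 to 1037 in JHU083 and 1342 to 1440 in Control, and the 9 neutrophil and granule markers to 1.26 to 2.44, 9.70 to 11.9 and 38.5 to 47.6 FPKM. The 9 dendritic cell markers, 6 of them under 0.5 FPKM in every library, summed to 39.4 to 46.8 FPKM in WGFT17, 91.0 to 96.3 in JHU083 and 92.7 to 141 in Control. Most of this sum is Cd74, at 36.3 to 43.8 FPKM in WGFT17 and 83.1 to 127 FPKM in Control libraries. Ccr7, under the FPKM minimum, went the other way, at 0.43 to 0.96 FPKM in WGFT17 and 0.06 to 0.08 FPKM in Control libraries. Endothelial markers, 7 in number, summed to 2.37 to 3.02, 6.70 to 8.17 and 5.78 to 6.60 FPKM, and 10 liver markers to 102 to 230.4, 73.9 to 236 and 417 to 468 FPKM. No marker of any list was at 0 in all libraries, and the part of these cells or transcripts in the changes of the 10 genes was not tested.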

How the data were processed

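The data are 9 RNA-seq libraries of mouse BMDMs, with 3 libraries in each of the WGFT17, JHU083 and Control groups. Poly(A) RNA was sequenced as stranded (dUTP) read pairs of 150 bases, per the labels' protocols. Tools named in the submitters' processing notes, without roles, are HISAT2 2.2.1, StringTie 2.1.6, cutadapt 1.9, edgeR and DESeq2, with mm9 as the genome build. The authors deposited 1 table with an FPKM value and a whole-number estimated (expected) count per gene and library, per the file headers. The deposited estimated counts may hold several counts per read pair, which was not tested here. Dividing them by 4 was an alternative. Depth was 56624220 to 69112134 counts per library, and intervals and p-values cover the spread between libraries at that depth. For 26088 of 28926 identifiers found in GENCODE M21 (90.2%) the table's coordinates are those of GRCm38, so positions are given in that build; Tyrobp and Lpl are among those that differ.

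Genes with a mean of at least 1 FPKM were tested on the estimated counts with edgeR 4.0.16 (TMM factors, quasi-likelihood F test, all 9 libraries in 1 fit, R 4.3.3), adjusted by Benjamini-Hochberg over all 11798 genes and called at an adjusted p under 0.05. The counts were whole as deposited and needed no rounding. SEs are the log2 change divided by the root of the F statistic, and 95% intervals use the fit's t quantile. Means and SDs are of deposited FPKM. The method was tested on simulated data. Alternatives were no FPKM minimum, a minimum of 5 FPKM, median-ratio and upper-quartile factors, library totals and DESeq2 1.42.0. Others were limma 3.58.1 on log2 FPKM with pseudocounts of 1, 0.1 and 0.01, and a fit of the 2 groups compared. The replicate number was also used as a block, and each library was left out in turn. For JHU083 against Control, a further fit left out JHU083 replicates 1 and 2, which lack most photoreceptor transcripts. It kept the WGFT17 libraries, which lack them too, for the estimate of spread. Promoters are the 250 bases before the RefSeq start.

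The members, the 10 other gene lists and the 12 marker lists were chosen with earlier results of these data known. Some lists share genes, among them Cd36, Lipa, Angptl4 and Acp5, so their counts are not separate observations. For named genes and lists, values without JHU083 replicate 3 come from the fit that leaves out that library. Named genes are the members, the 3 genes of each list with the smallest adjusted p in each comparison with Control, and 14 fixed genes; Cd63-ps was chosen after its values were seen. The result of 1 gene of these lists is withheld and not reported here, though list counts include it.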

Additional observations from a re-analysis of the deposited data

How the results depend on the processing

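Gpnmb, Spp1, Lpl, Fabp5, Cd9, Cd63 and Plin2 kept direction and call in WGFT17 against Control and in WGFT17 against JHU083 under all 22 alternatives, with log2 changes against Control of 1.08 to 1.25 for Gpnmb and 1.11 to 1.32 for Plin2. Lpl did so in JHU083 against Control under all 23 (0.37 to 0.54). Over all members, 616 alternative values kept their call and direction, 24 gained a call, 6 lost it and 24 changed sign, and the cause was not tested.

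In WGFT17 against Control, a minimum of 5 FPKM, which tests fewer genes, gave 4151 calls. Members called lower were 1 with no minimum FPKM and in limma with each pseudocount, and 1 to 2 when a library was left out; members called higher were 6 to 7 and all genes called 6007 to 7598. Fabp4 turned to 0.0197, 0.0212 and 0.0214 in limma (pseudocounts 1, 0.1 and 0.01). In JHU083 against Control, leaving out a library gave 1534 (without Control replicate 2) to 3731 calls, 1568 without Control replicate 3, with 1 to 3 members higher and 0 to 1 lower. Members called higher were 3 with library totals and in limma with each pseudocount, and DESeq2 called 2 lower. The fit with JHU083 replicate 3 as the only JHU083 library also kept the WGFT17 libraries, which add to its estimate of spread. Signs turned for Trem2 in that fit (-0.0362), and for Cd9 at 5 FPKM (0.0047) and with library totals (0.0162). In limma they turned for Spp1 (0.0269 each), Cd63 (0.0467, 0.0468 and 0.0469) and Cd9 (0.0745, 0.0750 and 0.0750). Without 1 library, Fabp4 ranged from -0.000406 to 0.179, Cd9 from -0.0643 to 0.0349 and Cd63 from -0.108 to 0.0724. In WGFT17 against JHU083, a minimum of 5 FPKM gave 3305 calls; leaving out a library gave 4471 to 5713, with 6 members higher and 1 to 2 lower. Trem2 turned to -0.0121 at 5 FPKM and -0.000845 with library totals. Without 1 library Trem2 ranged from -0.0634 to 0.0697 and Tyrobp from -0.122 to 0.0160. Without JHU083 replicate 1, Fabp4 was called lower there (-0.27, adjusted p = 0.0241, edgeR).

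The labels do not say whether replicate numbers pair the libraries. Correlations of the libraries' deviations from group means ran from -0.03 to 0.16 for same-numbered libraries. For differently numbered libraries they ran from -0.15 to 0.13. With 3 libraries per group, these values cannot show whether the libraries were paired. With the replicate block, 6530 genes were called in WGFT17 against Control, 2330 in JHU083 against Control and 4907 in WGFT17 against JHU083, and member counts were 6 higher and 2 lower, 1 and 0, and 6 and 1, as without it. Fabp4, near 11 FPKM, has the lowest depth of the members.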
